A study of Monodelphis domestica with 7 samples.

Results

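BCAN, PAPLN and COL24A1 encode 3 proteins of the extracellular matrix, and they were followed here by their gene identifiers (ENSMODG00000016815, ENSMODG00000006768 and ENSMODG00000000261) among the 21314 genes counted in spinal cord of the gray short-tailed opossum, *Monodelphis domestica*. All 3 were among the 13534 genes with enough counts to be tested. They were picked as genes already listed for the response to injury at P28, so every value from the P28+24h injured and P29 control libraries is given as a description without a p-value, and the same holds for comparisons that reuse the P29 control. The injury at P7 is the only comparison that the choice of genes did not use, and it is the only one tested for them.

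The opossum is a marsupial whose pups are born at a very immature stage, and the study asked how the cord above a complete thoracic transection responds at an age when axons regrow across the lesion (P7) and at an age when they do not (P28). RNA came from the cord segment rostral to the cut, or from the matching segment of uninjured animals, in pups of both sexes. The groups were P8 control (2 libraries), P7+24h injured (2 libraries, cut at P7 and collected 24 h later), P29 control (1 library) and P28+24h injured (2 libraries, cut at P28 and collected 24 h later). The paper describes each library as a pool of RNA from a pair of animals, so no value belongs to 1 animal. The animal numbers it gives for the sequencing are larger than such pools would need, and the labels do not settle this. The pups carried no genetic change. The P8 controls came from other litters than the pups cut at P7. At P28 injured and control pups usually shared litters, and the controls were also anaesthetised. The paper does not give the litters of the single libraries.

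Replicate numbers in the labels are sequencing runs, and each run was made from its own collection of samples, so the effects of collection and of sequencing cannot be told apart. The only P29 control belonged to run 1, which leaves run 1 as the only run in which the injury at P28 can be read against a control. Library totals ran from 3332232 to 6256074 counts. Levels are CPM, a gene's counts divided by the library's total and brought to a common total, after scaling with trimmed mean of M values (TMM) factors of 0.851 to 1.085. A count of 3, used as the floor of detection, was worth 0.448 to 1.06 CPM. Intervals attached to ratios are 95% intervals that cover counting error only. The oligodendrocyte markers OLIG2, MBP and MAG and the astrocyte markers GFAP and ALDOC were detected in all 7 libraries, while no neuronal or neural progenitor marker on the lists had an identifier, so neurons could not be checked.

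The neural extracellular matrix is built on hyaluronan, to which chondroitin sulfate proteoglycans of the lectican family (aggrecan, versican, neurocan and brevican) bind, with tenascin-R and link proteins holding the lattice together. In the mature cord it condenses into perineuronal nets, and lecticans are well known as molecules that restrain growing axons in injured adult tissue. BCAN encodes brevican, a brain and spinal cord lectican made mainly by glia. PAPLN encodes papilin, a sulfated glycoprotein of basement membranes related to the ADAMTS proteases, and COL24A1 encodes the chain of collagen XXIV, a minor fibrillar collagen best known from developing bone. In the RefSeq gene order of the assembly mMonDom1.pri, BCAN lies between NES and HAPLN2 and COL24A1 between ODF2L and ZNHIT6, and 0 other coding genes overlap either of them.

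**Figure D1:**
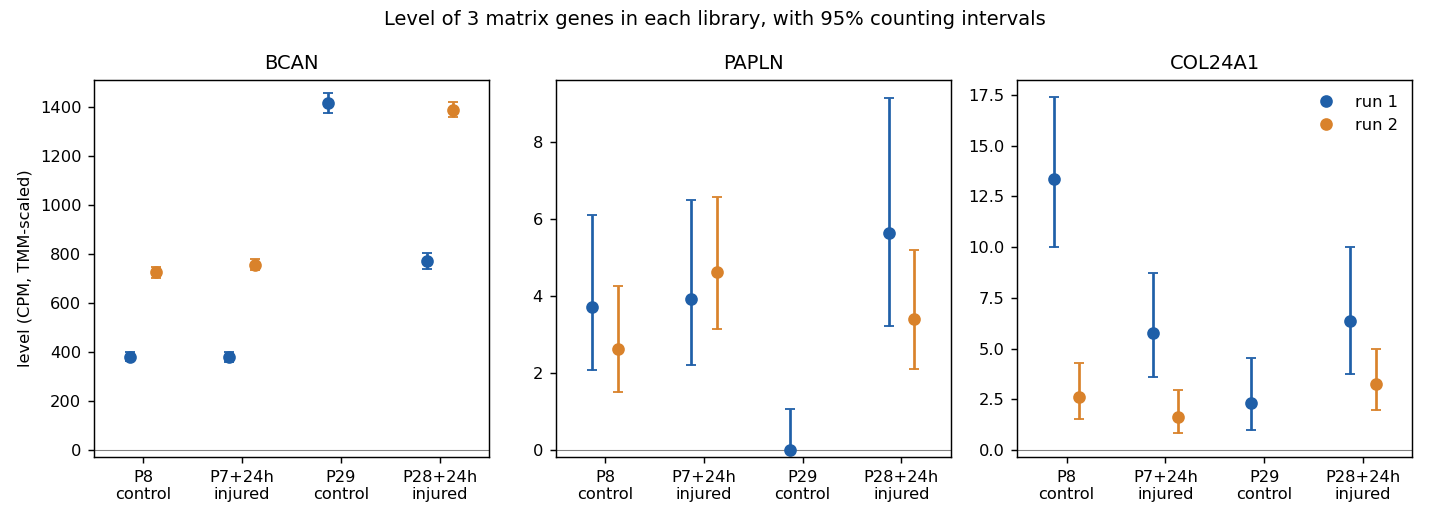
TMM-scaled CPM of BCAN, PAPLN and COL24A1 (linear vertical axes, each panel with its own scale) in each of the 7 libraries, by group and run, with bars for the 95% counting interval. BCAN was highest in the P29 control and in the run 2 library of the P28+24h injured group, PAPLN had 0 counts in the P29 control, and COL24A1 was highest in the run 1 library of the P8 control.

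BCAN was by far the best covered of these genes, with 1449 to 8570 counts per library. In the P8 controls its level was 380 CPM in run 1 and 724 CPM in run 2. In the P7+24h injured cords it was 380 CPM in run 1 and 756 CPM in run 2. Each injured library thus sat almost on the control of its own run, whereas the runs differed from each other in both groups. At the older age the P29 control held 1414 CPM, and the P28+24h injured cords held 771 CPM in run 1 and 1388 CPM in run 2. The older libraries were all above the younger libraries of their own run.

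With age the level of BCAN was higher in uninjured cord. Within run 1 the P29 control was 3.72-fold above the P8 control (interval 3.51 to 3.94), a difference of 1.89 on the log2 scale, and 5.35% of all tested genes differed by more in that direction. Injured cords could be compared between ages in both runs. P28+24h was 2.03-fold above P7+24h in run 1 (1.90 to 2.17) and 1.84-fold above it in run 2 (1.77 to 1.90). Of all tested genes, 16.6% in run 1 and 16.1% in run 2 differed by more in that direction. A higher level at the older age was therefore present in both runs among the injured cords, and it was smaller than in the run 1 controls. In bulk tissue a change in the number of cells that make a transcript and a change in the RNA per cell cannot be told apart.

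After the injury at P28, BCAN was lower in the library with a control of its own run. In run 1 the injured library held 0.545 times the level of the P29 control (0.518 to 0.573), or -0.88 on the log2 scale, where the median of all genes was -0.01 with an SD of 0.69, and 7.43% of genes were lower still. The run 2 injured library held 0.981 times the level of the same run 1 control (0.947 to 1.02). The library of run 2 had no control, and BCAN was higher in run 2 than in run 1 in each group with both runs, by 0.93 in P8 control, 0.99 in P7+24h injured and 0.85 in P28+24h injured on the log2 scale. Injury and run therefore cannot be told apart in the run 2 value. The fit of all 7 libraries without the run gave a log2 fold change of -0.39 (SE 0.62), and the fit with the run as a block, in which each run has its own level, gave -0.91 (SE 0.21). For age the same fits gave 1.36 (SE 0.61) and 1.89 (SE 0.21). The P29 control was 1 library, so these SEs hold no measure of the spread between P29 controls.

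**Figure D2:**
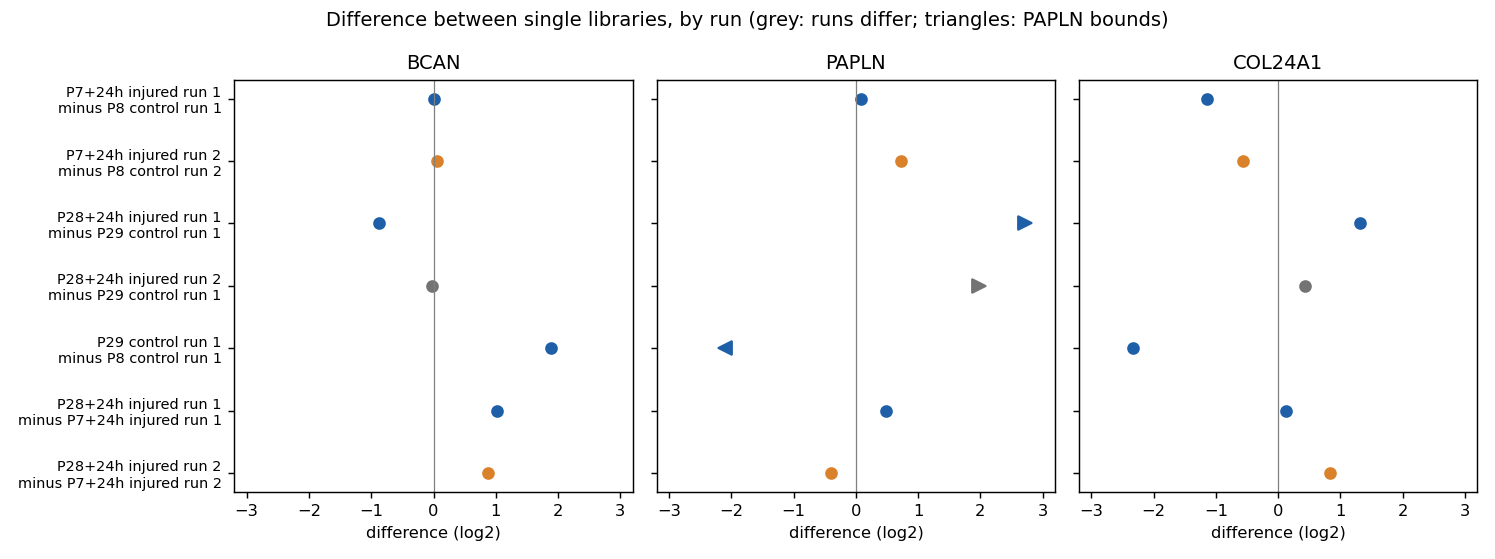
Log2 CPM differences of each gene between single libraries of run 1 (blue) or run 2 (orange), with the P28+24h run 2 library set against the run 1 control in grey and triangles for PAPLN bounds at the floor of 3 counts. BCAN was at 0.00 and 0.06 after the P7 injury and at -0.88 after the P28 injury in run 1, while COL24A1 was below 0 after the P7 injury and above 0 after the P28 injury.

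The oligodendrocyte and astrocyte marker sums were higher at the older age, as BCAN was, but single markers did not all follow it. The summed level of OLIG2, MBP and MAG, 3 of 10 oligodendrocyte markers, was 57.2 to 225 CPM in the younger libraries. It was 28500 CPM in the P29 control and 17900 and 23800 CPM in runs 1 and 2 of the P28+24h injured cords. The summed level of GFAP and ALDOC, 2 of 8 astrocyte markers, was 3570 to 4290 CPM in the younger libraries, 6380 CPM in the P29 control and 5510 and 5810 CPM in the P28+24h injured ones. Both sums were highest in the P29 control, and MBP and ALDOC made up most of them. GFAP and OLIG2 alone were highest in the run 2 library of the P28+24h injured group, with GFAP at 2380 CPM and OLIG2 at 218 CPM, against 1550 and 176 CPM in the P29 control and 1450 and 84.3 CPM in the run 1 injured library. After the P7 injury GFAP changed by 0.66 and 0.57 (log2, runs 1 and 2), against 0.00 and 0.06 for BCAN. In run 1 after the P28 injury GFAP was at -0.09, against -0.88 for BCAN. ALDOC was lower in run 2 than in run 1 in each group with both runs, where BCAN was higher. The part of these markers in the BCAN values was not tested.

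BCAN was also set against NCAN (neurocan, the lectican of the developing nervous system; ENSMODG00000028358), a quotient chosen after the values were seen. It compares the same pair of genes between libraries and says nothing of which transcript is more abundant, since the counts are not corrected for length. In the P8 controls there were 0.354 (0.333 to 0.375) and 0.333 (0.322 to 0.345) BCAN counts per NCAN count in runs 1 and 2. In the P7+24h injured cords the quotient was 0.341 (0.321 to 0.362) and 0.355 (0.343 to 0.366). The 4 younger libraries therefore fell between 0.333 and 0.355, although the BCAN level differed between their runs. NCAN differed between the runs in the same direction, at 1080 and 2170 CPM in P8 control and 1110 and 2130 CPM in P7+24h injured cords. In the P29 control the quotient was 0.814 (0.784 to 0.845). In the P28+24h injured cords it was 0.671 (0.635 to 0.709) in run 1 and 0.996 (0.966 to 1.03) in run 2. All 3 older libraries exceeded the 4 younger ones, and the injured libraries lay on opposite sides of the control.

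**Figure D3:**
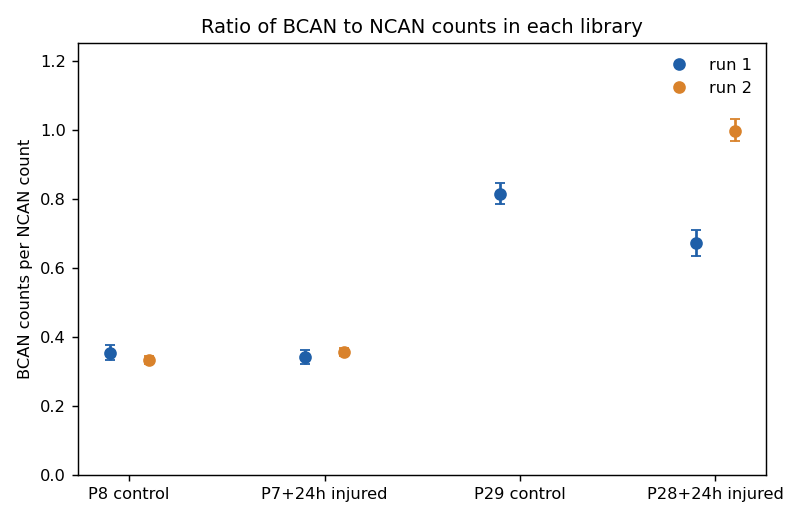
BCAN counts per NCAN count in each library, with 95% counting intervals, by group and run. The 4 libraries at P8 lie between 0.333 and 0.355, and the 3 at P29 lie between 0.671 and 0.996.

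NCAN itself had 1740 CPM in the P29 control and 1150 and 1390 CPM in the P28+24h injured cords. In run 1 its difference with age was 0.69 and its difference after the P28 injury was -0.60, both on the log2 scale, against 1.89 and -0.88 for BCAN. TNR (tenascin-R, a lectican-binding protein of the nets; ENSMODG00000005481) had 38.7 CPM in the P29 control and 21.5 and 103 CPM in the P28+24h injured cords. The run 1 values of BCAN, NCAN and TNR after the P28 injury were all negative, but TNR was also 2.13 to 2.29 higher on the log2 scale in run 2 than in run 1 in the 3 groups with both runs.

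PAPLN was covered by few counts, and a single library set its pattern. The P8 controls held 15 and 16 counts (3.71 and 2.63 CPM), and the P7+24h injured cords held 15 and 31 counts (3.93 and 4.63 CPM). The P29 control held 0 counts, where the floor of 3 counts is worth 0.861 CPM and the exact 95% counting limit is 1.06 CPM. The P28+24h injured cords held 16 and 21 counts (5.64 and 3.40 CPM). The P28+24h injured libraries spanned 3.40 to 5.64 CPM and overlapped the younger libraries at 2.63 to 4.63 CPM, so the uninjured P29 cord stood apart, and not the injured one.

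Set against a floor of 3 counts in the P29 control, the level of PAPLN after the P28 injury was at least 5.25-fold higher as the mean of both libraries, and at least 6.55-fold higher in run 1. The P8 control was at least 3.68-fold higher than the P29 control as a mean and at least 4.31-fold higher in run 1. These folds treat the floor as a fixed level. With counting error in both libraries, the lower 95% limit of the P28+24h level over the P29 control was 4.74-fold in run 1 and 2.94-fold for the run 2 library against the run 1 control, and that of the P8 control over the P29 control in run 1 was 3.09-fold. At the mean P8 level the P29 control would have held 11 counts, and at the mean P28+24h level 15.8. The 6 other libraries held 15 to 31 counts of PAPLN, and 44 genes, PAPLN among them, had counts in that range in each of those 6. PAPLN was the only 1 of the 44 at 0 in the P29 control, which is a description only, since the range was taken from PAPLN itself. With no further P29 control, the spread of PAPLN at that age is not known.

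Between injured cords of the 2 ages, PAPLN showed no common direction. In run 1 P28+24h was 1.43 times P7+24h (0.664 to 3.11), and in run 2 it was 0.735 times P7+24h (0.401 to 1.32). Both intervals included 1. PAPLN was also the gene with the smallest spread between runs, at a pooled replicate SD of 0.336 on the log2 scale, compared with 0.654 for BCAN and 1.156 for COL24A1, and its run 2 libraries differed from run 1 by -0.44, 0.21 and -0.67 in P8 control, P7+24h injured and P28+24h injured, in that order.

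Of its relatives, ADAMTSL1 (an ADAMTS-like matrix glycoprotein) had 52.2 CPM in the P29 control and 33.9 and 49.9 CPM in the P28+24h injured cords. ADAMTSL5, an ADAMTS-like protein that binds microfibrils, had 10.3 CPM against 36.0 and 10.7 CPM. ADAMTS10, a protease linked to fibrillin microfibrils, had 31.6 CPM against 79.3 and 41.1 CPM. None of these 3 was at 0 in any library. Levels of ADAMTSL5 and ADAMTS10 were lower in run 2 than in run 1 in each group with both runs, by 1.67 to 2.33 and 0.79 to 1.21 on the log2 scale.

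COL24A1 was also thinly covered, with 8 to 54 counts, and its run 1 and run 2 libraries differed in every group that had both. The P8 controls held 54 and 16 counts (13.3 and 2.63 CPM), and the P7+24h injured cords held 22 and 11 counts (5.77 and 1.64 CPM). The P29 control held 8 counts (2.30 CPM), and the P28+24h injured cords held 18 and 20 counts (6.35 and 3.24 CPM). The run 1 library of the P8 control stood above all others, 5.07-fold above its run 2 partner (2.86 to 9.49). In each group with both runs, run 2 was lower, by 2.17 in P8 control, 1.58 in P7+24h injured and 0.89 in P28+24h injured on the log2 scale. In the P8 control 0.569% of genes were shifted further down, in P7+24h injured 1.26% and in P28+24h injured 15.6%.

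**Figure D4:**
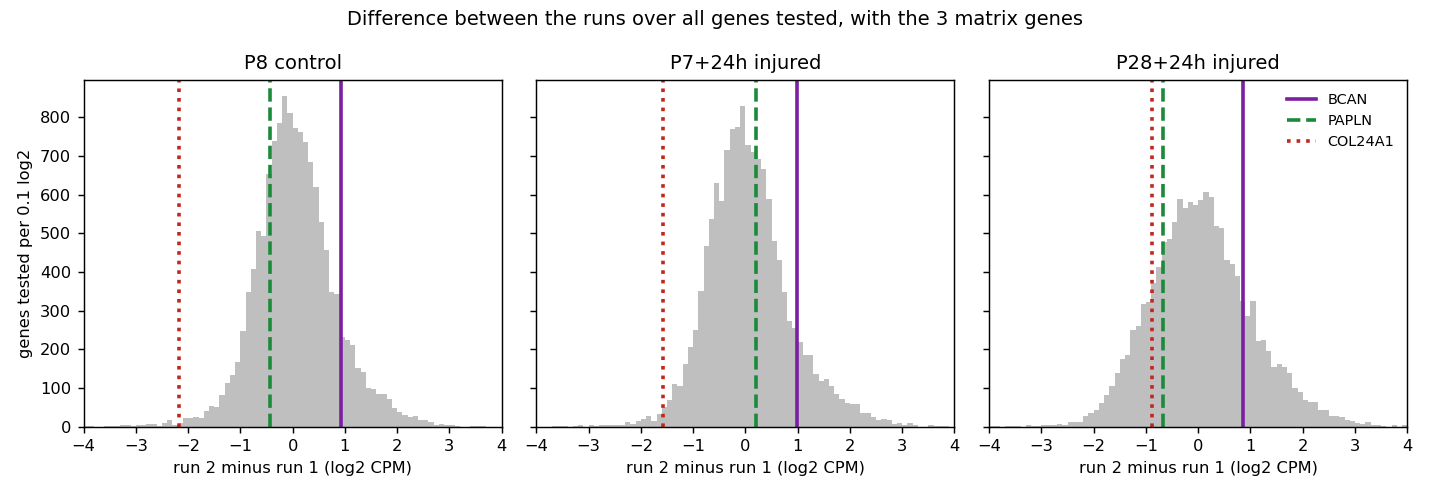
Distribution over the 13534 tested genes of the log2 CPM difference between run 2 and run 1 for the P8 control and both injured groups, with BCAN, PAPLN and COL24A1 marked. BCAN lies above 0 (0.93, 0.99 and 0.85) and COL24A1 below 0 (-2.17, -1.58 and -0.89) in all 3 groups.

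COL24A1 was lower after the P7 injury in both runs. After the P28 injury it was higher in run 1, the only run with a P29 control. The P7+24h injured library held 0.432 times the level of the P8 control in run 1 (0.251 to 0.722) and 0.624 times in run 2 (0.262 to 1.43). The P28+24h injured library of run 1 held 2.77 times the level of the P29 control (1.14 to 7.35), and that of run 2 held 1.41 times the level of the run 1 control (0.595 to 3.70). Both run 2 intervals included 1. The P28 values share a control library with 8 counts. Since COL24A1 was lower in run 2 in each group with both runs, injury and run cannot be told apart in the run 2 value at P28. Within run 1 the P29 control was 5.81-fold lower than the P8 control (2.75 to 14.1).

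The age value of COL24A1 and the difference between its responses leaned on the run 1 library of the P8 control. The fits without and with the block gave -1.76 (SE 1.31) and -2.32 (SE 0.59) for age, 1.01 (SE 1.31) and 1.84 (SE 0.63) for the P28 injury, and 2.14 (SE 1.63) and 2.87 (SE 0.74) for the difference between the responses at the 2 ages, all on the log2 scale. Without that library the unblocked values were -0.20 for age and 0.57 for the difference, while the value for the P28 injury was still 1.01. Injured cords of the 2 ages, which do not involve it, differed by 1.10-fold in run 1 (0.556 to 2.15) and 1.97-fold in run 2 (0.901 to 4.56), and both intervals included 1. The SEs of the fits hold no measure of the spread between P29 controls, of which there was 1.

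Marker sums that shared the run pattern of COL24A1 were those of erythroid genes (ALAS2, HBZ and GATA1, 3 of 6 on the list), at 242 and 46.9 CPM in P8 control, 157 and 47.3 CPM in P7+24h injured and 410 and 130 CPM after the P28 injury, run 1 first, with 186 CPM in the P29 control. FBN1, the only fibroblast and meningeal marker of 6 with an identifier, had 60.3 and 36.0 CPM in P8 control, 47.2 and 29.7 CPM in P7+24h injured, 31.3 CPM in the P29 control and 53.3 and 52.3 CPM in P28+24h injured cords. FBN1 was thus highest in the same library as COL24A1, while its P28+24h level was alike in both runs. Skeletal muscle markers (4 of 9 on the list) summed to 2.22 to 10.6 CPM in the younger libraries, 4.02 CPM in the P29 control and 136 and 36.3 CPM after the P28 injury, and microglia and macrophage markers (4 of 9) to 22.7 and 26.2 CPM in P8 control, 78.9 and 101 CPM after the P7 injury, 107 CPM in the P29 control and 351 and 235 CPM after the P28 injury. Like COL24A1 and PAPLN, both sums were higher in the P28+24h injured libraries than in the P29 control and higher in run 1 than in run 2 of that group. The run order was that of MYL1, MYLPF and MYH4 among the muscle markers and of C1QA, C1QB and C1QC among the others. It was the reverse for ACTA1 (9.52 and 17.2 CPM in runs 1 and 2) and for CSF1R (6.7 and 21.9 CPM). The part of any of these markers in the COL24A1 and PAPLN values was not tested. No cartilage or bone marker on the list had an identifier.

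The 3 genes did not move as a unit. Over the 7 libraries the correlation of log2 CPM was -0.53 between BCAN and PAPLN, -0.67 between BCAN and COL24A1 and 0.36 between PAPLN and COL24A1, given as a description of libraries that share run and depth. Among the 665 other tested genes with a symbol, most of them named because the study listed them for a response, the closest patterns to BCAN were those of PLCL1 (a phospholipase C-like protein without catalytic activity, r = 0.996), DAAM2 (a formin that organises actin, r = 0.995) and ENTPD5 (a nucleotidase of the endoplasmic reticulum, r = 0.987). For PAPLN they were TTC40 (a protein of motile cilia, r = 0.969), CABIN1 (a calcineurin-binding protein, r = 0.942) and IFT172 (a carrier of intraflagellar transport, r = 0.916). For COL24A1 they were NKTR (a cyclophilin-like protein, r = 0.975), DENND4C (an exchange factor for Rab proteins, r = 0.958) and ITGA2B (the platelet integrin chain, r = 0.942). Above r = 0.9 there were 77 such genes for BCAN, 4 for PAPLN and 30 for COL24A1. The PAPLN correlations lean on the P29 control, where its log2 CPM was -1.24, against 1.61 to 2.60 in the other libraries.

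The injury at P7 was the comparison in which BCAN, PAPLN and COL24A1 could be tested, and none of the 3 was called by edgeR's quasi-likelihood test, at an adjusted p under 0.05 with a fold of at least 2. BCAN had a log2 fold change of 0.04 (SE 0.52, 95% interval -1.22 to 1.31), PAPLN of 0.45 (SE 0.49, -0.74 to 1.64) and COL24A1 of -1.13 (SE 0.95, -3.47 to 1.20), with an adjusted p of 1 for each. Without the run 1 library of the P8 control the COL24A1 value turned to 0.44 and the BCAN value to -0.35, and without the run 2 library of the P7+24h injured group the BCAN value was -0.54. The background was 0% of all tested genes called, with 0 of 13534 past both thresholds and 69 at an unadjusted p under 0.05. These p-values rest on a spread estimated over all 7 libraries in 1 fit, differences between the runs included. The P8 control and P7+24h injured groups had 2 libraries each.

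With the run as a block, which took the common dispersion from 0.141 to 0.0181, the same test called 0.0148% of genes and again 0 of the 3. The interval for BCAN narrowed to -0.33 to 0.39 around 0.03, that for PAPLN was -0.39 to 1.40 around 0.50, and that for COL24A1 was -1.90 to -0.15 around -1.02. The COL24A1 interval excluded 0, at an unadjusted p of 0.0262 by the quasi-likelihood test, but its adjusted p was 1. A likelihood ratio test with the block called 0.266% of genes, 0 of the 3 among them, and gave COL24A1 an unadjusted p of 0.0124 and an adjusted p of 1. The intervals of PAPLN and COL24A1 still held changes of more than 2-fold, so a change of that size was not excluded for them, whereas the blocked interval of BCAN held none.

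**Figure D5:**
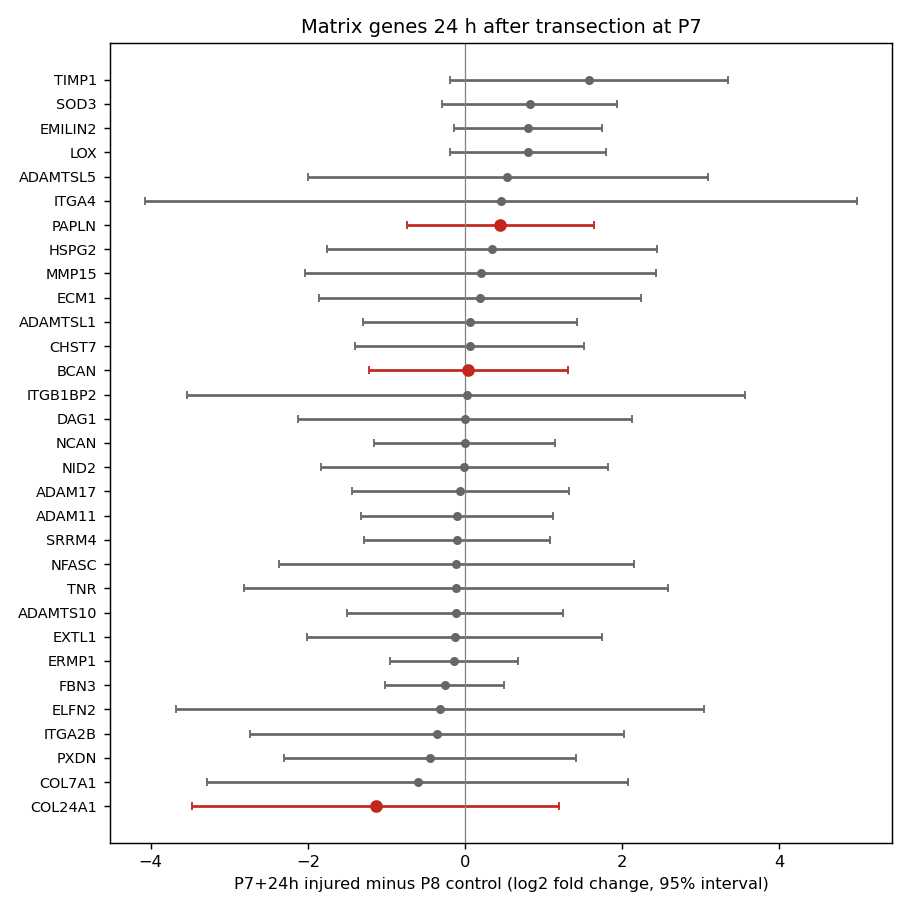
Log2 fold changes after the P7 injury, with 95% intervals from edgeR's quasi-likelihood fit without the block, for 31 of 34 matrix genes with an identifier, BCAN, PAPLN and COL24A1 among them; OLFM4, MGP and CNDP1 are not drawn, since no P8 control held over 2 counts of them and no P7+24h injured library over 4. The plotted values run from -1.13 (COL24A1) to 1.58 (TIMP1), and 0 of the 31 intervals exclude 0. In that quasi-likelihood fit only 69 of the 13534 tested genes had an unadjusted p under 0.05, so few intervals of any genes exclude 0. With the block, which is not drawn, the COL24A1 interval excluded 0 and those of BCAN and PAPLN did not.

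Other matrix genes gave a similar picture after the P7 injury. Identifiers were at hand for 2 further lecticans or net partners of a list of 14, with log2 fold changes of 0.00 for NCAN and -0.11 for TNR. There were 3 further members of the papilin and ADAMTS list of 26, at 0.07 for ADAMTSL1, 0.54 for ADAMTSL5 and -0.12 for ADAMTS10, and no further fibrillar collagen of 11. CHST7, a sulfotransferase acting on chondroitin, was at 0.06, and the basement membrane genes HSPG2 (perlecan) and NID2 (nidogen) were at 0.35 and -0.01. None passed the quasi-likelihood test, which called 0% of all tested genes without the block and 0.0148% with it. With so few calls over all genes, this says little of these genes in particular.

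In the study's own extracellular matrix group, chosen on these libraries and so not independent evidence, 25 genes besides BCAN, PAPLN and COL24A1 could be followed. Their median log2 fold change after the P7 injury was -0.01, against a median of 0.01 over all tested genes. Without OLFM4, MGP and CNDP1, which were at or near the floor in both groups, it was -0.08 over 22 genes, with 8 above 0 and 13 below. Of the 25, 0 were called by the quasi-likelihood test, which called 0% of all tested genes without the block and 0.0148% with it. The likelihood ratio test with the block called 0.266% of all tested genes and 1 of the 25. That gene, named after its value was seen, was TIMP1, an inhibitor of matrix metalloproteinases, at 4.20 and 0.987 CPM in P8 control and 9.44 and 5.67 CPM in P7+24h injured cords. TIMP1 rose by 1.67 on the log2 scale with an adjusted p of 0.00887 in edgeR's likelihood ratio test with the block. However, its quasi-likelihood adjusted p without the block was 1.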

How the data were processed

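RNA from rostral spinal cord (7 libraries, 4 groups) was sequenced by the authors as single-end reads, which they trimmed, mapped with Bowtie2 to the Ensembl opossum genome of release 69 and counted on nuclear genes with HTSeq in union mode. The deposited values are whole-number counts for 21314 genes, without normalization. The paper names no strand setting for the counting, and reads on near-identical genes may be split. The sources disagree on the RNA integrity number required of the samples. The study's own lists of changed genes were read only for pairs of identifier and symbol (670 genes), and no values of theirs were used.

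TMM factors were computed in edgeR 4.0.16 (R 4.3.3), and the 13534 genes that passed filterByExpr (minimum count 10) were fitted in 1 quasi-likelihood model over all 7 libraries, with 3 residual degrees of freedom. Adjustment followed Benjamini and Hochberg over all tested genes. A call needed at least a 2-fold difference besides an adjusted p under 0.05. Log2 CPM used a prior count of 2. Library ratios carry exact 95% binomial intervals. PAPLN folds against the P29 control are bounds at a floor of 3 counts, since the control held 0.

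The replicate number is the run of separately collected samples. Deviations of the libraries of 1 run from their group means correlated across 13534 genes at 0.80, 0.70 and 0.74 for the 3 pairs of groups, so the fit with the run as a block (2 residual degrees of freedom) is given beside the main values. Only run 1 holds a P29 control.

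Named genes were BCAN, PAPLN and COL24A1, members of the lectican, papilin and fibrillar collagen lists, at most 4 of the highest mean CPM from each other list, and for each of the 3 the 3 named genes closest in pattern. The genes and lists were chosen with earlier results of these data known. Alternatives were DESeq2 1.42.0, edgeR's exact and likelihood ratio tests, other scalings, filters and prior counts, the block and leaving out each replicate. Values within runs, the BCAN to NCAN quotient and the count of genes at 0 in 1 library were added after the data were seen. Sequences and coordinates were not used here, and some further results, a marker among them, are not reported here. Python 3.11.15, pandas 2.3.3 and matplotlib 3.10.9 were used for the figures.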

Additional observations from a re-analysis of the deposited data

Results flagged for a closer look

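COL24A1 drew attention because its libraries moved in opposite directions at the 2 ages. After the P7 injury its log2 CPM changed by -1.15 in run 1 and -0.56 in run 2, and after the P28 injury by 1.32 in run 1 and 0.43 in run 2, the last against the run 1 control. The difference between the ages was not tested, since COL24A1 was chosen with the P28 response known. Both P28 values share 1 control library with 8 counts of the gene, and the run 1 value at P7 rests on the P8 control library that held 54. Injury and run cannot be told apart in the run 2 value at P28.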

How the results depend on the processing

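With the replicate block the number of genes called went from 0 to 2 after the P7 injury, from 0 to 102 after the P28 injury, from 242 to 2893 for age and from 0 to 5 for the difference between ages, and none of BCAN, PAPLN and COL24A1 was called after the P7 injury in either fit. The likelihood ratio test with the block called 36, 493, 3242 and 199 genes. The exact test called 5, 3 and 972 for the first 3 comparisons, DESeq2 called 2 after the P7 injury and 855 for age, and scaling by library size only called 138 for age.

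When replicates were left out in turn, the P7 value (log2) of BCAN ran from -0.54 to 0.58, and it was -0.35 without the P8 control of run 1 and -0.54 without the P7+24h injured library of run 2. For COL24A1 it ran from -2.24 to 0.44, the latter without the P8 control of run 1, and for PAPLN from 0.21 to 0.70. The difference between ages ran from -0.97 to 0.15 for BCAN, the latter without the P7+24h injured library of run 2, and from 0.57 to 3.25 for COL24A1. The age value of COL24A1 ran from -2.53 to -0.20 and that of BCAN from 0.96 to 1.89. After the P28 injury BCAN ran from -0.94 to -0.04 and COL24A1 from 0.48 to 1.39. The log2 bound on PAPLN after the P28 injury (2.39) ran from 1.97 to 2.65 and that for age (-1.88) from -2.11 to -1.61. Genes called for age ran from 0 to 139, and those after either injury and for the difference stayed at 0. The cause of these shifts was not tested.

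Of 195 alternative values, 23 moved beyond the limit for their kind and 4 reversed. The other 168 stayed within that limit, and those with a direction kept it. Some of the 168 were numbers of genes called, which have no direction, and many of these were 0 under both settings. Only the 39 of the 168 that were P7 values of the 3 genes had a test whose call could be kept. Some of the 168 shifted in size, such as BCAN after the P28 injury from -0.39 to -0.91 with the block. The P29 control could not be left out, the exact test gave no value for the difference between ages, and the bounds on PAPLN were recomputed only under other scalings and without replicates. PAPLN held 0 to 31 counts per library and COL24A1 8 to 54, and no group had more than 2 libraries. The part of depth and of the number of libraries in these limits was not tested.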
